A study of Mus musculus with 6 samples.

Results

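The genes described here are 33 regulators and markers of pluripotency in mouse embryonic stem (ES) cells, chosen by name and without the KLF factors and the LIF pathway. A gene is represented here by its brightest probe set, averaged across arrays, counting only probe sets annotated with that symbol and no other. This rule found 32 of the 33 members among 18193 genes; Tdh was not analysed here. Affymetrix arrays measured total RNA of 129SV ES cells, either wild-type or MED23 knockout, after 24 hours in fresh complete medium. Each genotype had 3 arrays, called biological replicates in the labels. Whether they came from separate cultures or clones, and how the knockout was made, is not stated in these sources, so the p values measure only the spread between these samples. The comparison asks how loss of Med23, a subunit of Mediator, which relays signals from transcription factors to the polymerase, bears on expression in undifferentiated cells.

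Pluripotency is the capacity of a cell to form every tissue of the embryo. In ES cells it rests on the transcription factors OCT4 (Pou5f1), SOX2 and NANOG, which bind many shared sites and support the transcription of each other and of further factors such as ESRRB, TFCP2L1 and PRDM14. These further factors mark the naive state of the preimplantation embryo and are shut down as cells move through the formative state to the primed state of the later epiblast. OCT4 and SOX2 often bind side by side at a joined SOX-OCT element.

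Promoter windows are shown for Nanog, which carries that element, for Zfp42, which carries an octamer, and for Tcl1 and Gbx2, which rose and fell in the knockout. The sequences are those of RefSeq on GRCm38.p6 and hold the 250 bases before the start site, written 5′ to 3′ on the strand of the gene. RefSeq windows were matched by symbol for 20 members, 27 windows in all. Capitals mark matches on either strand to the SOX-OCT element, to octamer (ATGCAAAT) or to GC box (GGGCGG) letters. The SOX-OCT element was searched as CATTGT, any 1 base, then ATGCAAA, and its end overlaps the start of the octamer letters.
Nanog, chr6:122707315-122707564, plus strand: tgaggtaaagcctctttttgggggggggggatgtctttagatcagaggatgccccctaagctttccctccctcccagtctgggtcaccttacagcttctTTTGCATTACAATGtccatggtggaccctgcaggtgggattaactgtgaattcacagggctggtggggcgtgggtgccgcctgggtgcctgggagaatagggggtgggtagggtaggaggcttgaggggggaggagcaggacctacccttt
Zfp42, chr8:43307010-43307259, minus strand: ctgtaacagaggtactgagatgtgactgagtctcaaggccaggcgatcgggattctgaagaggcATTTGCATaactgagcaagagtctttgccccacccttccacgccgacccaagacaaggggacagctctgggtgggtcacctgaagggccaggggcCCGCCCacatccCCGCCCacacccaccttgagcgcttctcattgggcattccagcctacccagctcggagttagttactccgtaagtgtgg
Tcl1, chr12:105222738-105222987, minus strand: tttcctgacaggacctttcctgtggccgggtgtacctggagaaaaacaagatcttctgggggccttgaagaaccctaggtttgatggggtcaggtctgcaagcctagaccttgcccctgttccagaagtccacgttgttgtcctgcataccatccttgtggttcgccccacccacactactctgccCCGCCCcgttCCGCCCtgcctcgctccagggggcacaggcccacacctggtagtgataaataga
Gbx2, chr1:89931177-89931426, minus strand: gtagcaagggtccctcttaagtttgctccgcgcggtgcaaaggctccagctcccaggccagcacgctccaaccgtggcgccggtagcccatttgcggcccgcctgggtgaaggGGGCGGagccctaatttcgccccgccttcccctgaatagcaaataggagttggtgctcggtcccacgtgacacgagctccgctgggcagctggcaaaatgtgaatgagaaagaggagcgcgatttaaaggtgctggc
The SOX-OCT element was matched in 2 of 32851 windows in the mouse set (0.00609%). Both were overlapping windows of Nanog and hold the same match, TTTGCATTACAATG, 151 to 138 bases before the start site printed here. These letters were written down knowing the element of the Nanog promoter. The octamer was found in 1.6% of all windows and in 1 of the 27 member windows, that of Zfp42. GC boxes were found in 32.7% of all windows and in 13 of the 27. A match is a description of letters and not a measurement of binding.

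Across the 32 measured genes, 3 rose in the knockout (Fbxo15, Pecam1 and Tcl1), 3 fell (Gbx2, Dppa4 and Mycn) and 26 did not pass the test, a limma adjusted p under 0.05. Among all genes 8.53% rose and 10.4% fell, so the share of pluripotency genes called was close to the background in both directions. Because 31 of the 32 had a mean log2 value above 7, genes above that level are the closer background, and of these 13.5% rose and 13.5% fell. The median log2 difference, knockout minus wild-type, was 0.04 for the pluripotency genes and 0.02 for all genes. The median size of the difference was 0.17 against 0.13 for all genes and 0.16 for those above 7. Knockout arrays lay wholly above wild-type arrays for 9 pluripotency genes and wholly below for 7, where 21.4% and 19.5% of all genes did so. Among genes above 7 these shares were 32.8% and 26.3%.

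**Figure D1:**
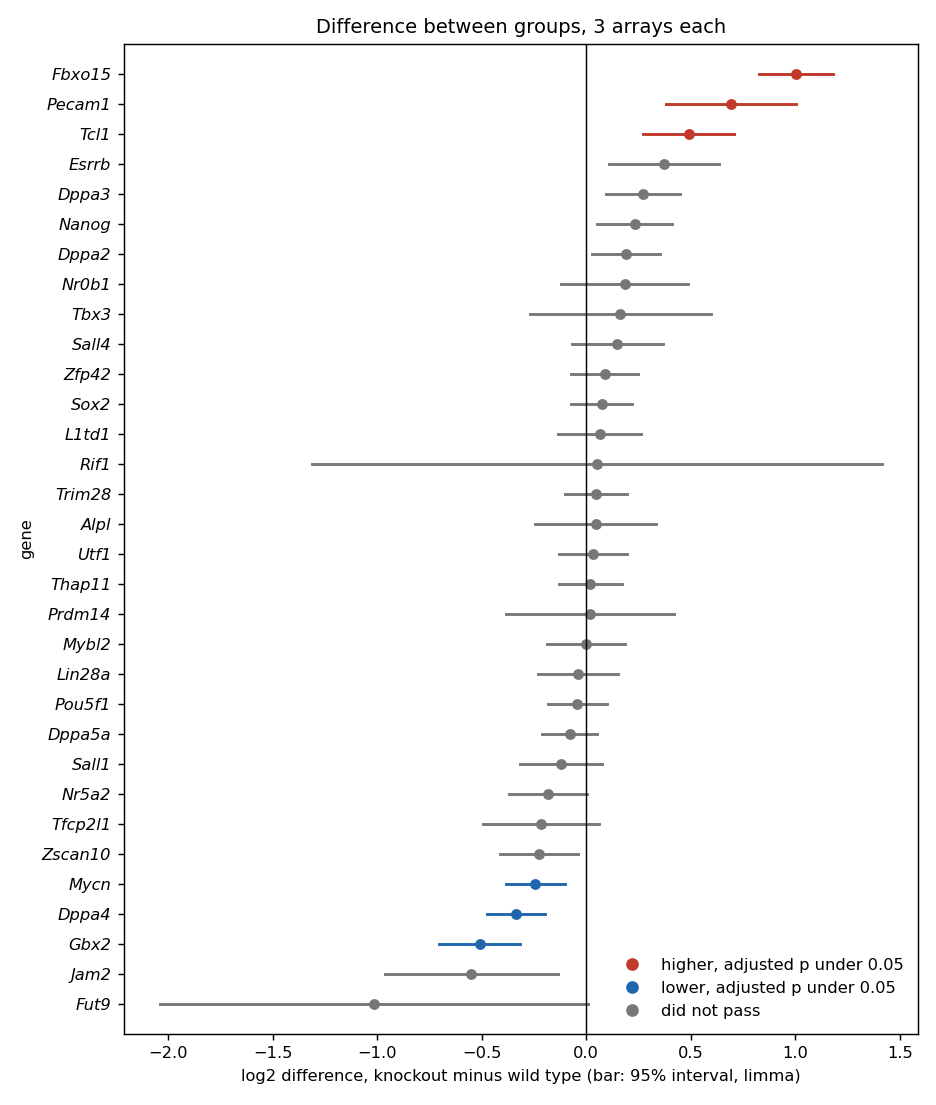
Log2 difference between groups, knockout minus wild-type, for the 32 measured pluripotency genes, ordered by size; points are fitted differences of 3 arrays against 3 and bars are 95% intervals from limma. Red and blue points passed the test, with Fbxo15 at 1.002 the highest and Gbx2 at -0.51 the lowest of these, and most intervals of the grey points span 0.

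Facts of the whole series bear on these values as follows. Medians of the 6 arrays lay between 4.61 and 4.64, and wild-type arrays correlated at 0.993 to 0.997 with each other and knockout arrays at 0.998. Med23 itself fell from 8.88 ± 0.05 to 7.37 ± 0.04 (SD, n = 3; log2 difference -1.52, SE 0.06, adjusted p = 2.69e-05). The groups also differed in Y-linked genes, with Eif2s3y at 3.04 ± 0.37 in wild-type and 9.87 ± 0.15 in knockout arrays (SD, n = 3). Loss of Med23 and another difference between the cell lines therefore cannot be told apart. Wild-type replicate 1 stood apart from its group, with 752 probe sets lower than the average of the other pair by 2-fold or more and 1 higher by as much.

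None of the core factor genes Pou5f1, Sox2 and Nanog passed the test, with log2 differences of -0.04, 0.07 and 0.23. Pou5f1, which encodes OCT4, had log2 values of 13.01, 12.94 and 12.92 in the wild-type arrays, given here and below in the order of replicates 1 to 3, and of 12.93, 12.91 and 12.91 in the knockout arrays. The groups overlapped, and the difference was -0.04 (SE 0.06, adjusted p = 0.721) with a 95% interval of -0.18 to 0.10. A change of OCT4 transcript beyond 0.18 on the log2 scale thus lay outside that interval. Sox2, the partner of OCT4, was 11.84, 11.82 and 11.87 in wild-type and 11.89, 11.98 and 11.88 in knockout arrays. All knockout arrays were higher, but by no more than 0.22 at the upper end of the 95% interval, and the difference of 0.07 did not pass (SE 0.06, adjusted p = 0.523).

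Nanog, the homeobox factor that sustains self-renewal without LIF when abundant, was 11.65, 11.56 and 11.42 in wild-type and 11.77, 11.79 and 11.77 in knockout arrays. Every knockout array was above every wild-type array, and wild-type replicate 3 was the lowest. The difference of 0.23 (SE 0.08, 95% interval 0.05 to 0.41) missed the threshold (adjusted p = 0.0957). Without wild-type replicate 1 it passed at 0.0409, and with an intensity trend in the variance at 0.0192; over 12 alternatives the adjusted p ran from 0.0192 to 0.232. Its direction was the same in all 12, but with no overlap between the groups, leaving out 1 array could not turn it.

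Of 13 further transcription factor genes, 2 fell, Gbx2 and Mycn, none rose, and 11 did not pass. Among all genes with a mean above 7, 13.5% fell and 13.5% rose. Gbx2, a homeobox gene downstream of LIF and STAT3 that supports the naive state, was 9.44, 9.26 and 9.23 in wild-type and 8.85, 8.84 and 8.71 in knockout arrays. The groups were separated by more than the spread of either. The difference was -0.51 (SE 0.08, adjusted p = 0.00708), or 1.42-fold lower, and it passed in each of 12 alternatives (adjusted p at most 0.0340). Mycn, the MYC family gene that drives growth and proliferation in ES cells, was 11.40, 11.32 and 11.40 in wild-type and 11.14, 11.13 and 11.12 in knockout arrays. Its difference of -0.24 (SE 0.06, adjusted p = 0.0365), or 1.18-fold, was small. It passed in 3 of 12 alternatives and missed the threshold without any 1 of the 6 arrays. The adjusted p then ran from 0.0565 without wild-type replicate 2 to 0.129 without knockout replicate 3. The dimmer probe sets of Mycn were also lower, by 0.085 and 0.16, but the groups overlapped and neither passed (adjusted p = 0.536 and 0.380).

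Esrrb encodes an orphan nuclear receptor that can stand in for NANOG in self-renewal. It was 10.68, 10.53 and 10.24 in wild-type and 10.85, 10.87 and 10.85 in knockout arrays, so the groups did not overlap. The difference of 0.37 (SE 0.11) had an adjusted p of 0.0737, and of 0.0241 without wild-type replicate 1; the range over 12 alternatives was 0.0241 to 0.186. All 3 of its probe sets gave positive differences. Tfcp2l1, a naive factor induced by LIF, went the other way. It was 10.48, 10.36 and 10.03 in wild-type and 10.04, 10.09 and 10.10 in knockout arrays, and the knockout arrays sat at the level of wild-type replicate 3. Its difference of -0.22 did not pass (SE 0.12, adjusted p = 0.304), although it passed without wild-type replicate 3 (-0.35, adjusted p = 0.0329; range over alternatives 0.0329 to 0.675).

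The factors Zfp42 (REX1, a widely used naive marker), Nr0b1 (DAX1, an orphan receptor that binds OCT4), Tbx3 (a T-box factor) and Prdm14 (a PR-domain repressor of FGF receptor signalling) had differences of 0.09, 0.18, 0.16 and 0.02. Their adjusted p values ran from 0.440 for Nr0b1 to 0.966 for Prdm14. In each of these, wild-type replicate 3 was the lowest array of the 6, as Prdm14 shows with 7.87, 7.55 and 7.16 in wild-type and 7.45, 7.63 and 7.55 in knockout arrays. The direction of Prdm14 and Tbx3 turned without that array (to -0.17 and -0.07). The zinc finger genes Sall1 and Zscan10 had differences of -0.12 and -0.23 (adjusted p = 0.420 and 0.113), with all knockout arrays of Zscan10 below the wild-type arrays. Utf1, which encodes a chromatin-bound factor of undifferentiated cells, had a difference of 0.03 (95% interval -0.13 to 0.19).

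The remaining factors, Sall4 and Nr5a2, gave different answers by probe set. Sall4 encodes a zinc finger factor that binds OCT4 and keeps ES cells from entering the trophoblast lineage. Its brightest probe set was 12.22, 12.21 and 11.93 in wild-type and 12.31, 12.27 and 12.22 in knockout arrays, a difference of 0.15 (SE 0.09, adjusted p = 0.377). The other was 10.56, 10.37 and 10.19 in wild-type and 8.40, 8.40 and 8.37 in knockout arrays. Those groups lay far apart, with a log2 difference of -1.98 (SE 0.10, adjusted p = 5.49e-05), or 3.94-fold lower. This signal passed in all 11 alternatives run on it, between -2.07 and -1.89. Which transcripts each probe set reads is not stated in these sources, so no level of total Sall4 RNA can be drawn from the pair.

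Nr5a2, or LRH-1, a nuclear receptor that activates Pou5f1, was 9.34, 9.45 and 9.19 in wild-type and 9.15, 9.13 and 9.14 in knockout arrays at its brightest probe set. That difference of -0.18 did not pass (SE 0.08, adjusted p = 0.198). The second brightest was 8.65, 8.73 and 8.52 in wild-type and 9.02, 9.01 and 9.01 in knockout arrays, and this probe set rose by 0.38 (SE 0.07, adjusted p = 0.0139). The call was lost without any 1 of the knockout arrays (adjusted p 0.0559, 0.0566 and 0.0578 without knockout replicates 1, 2 and 3). The other 2 probe sets of the gene did not pass.

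In all, 15 members had more than 1 probe set and the 32 members had 62. Of these 62, 7 were higher and 6 lower past the test, where 6.69% and 7.43% of all probe sets were. Many of all probe sets are dim (median of all values 4.62). Of genes with a mean above 7, as 31 of the 32 members had, 13.5% were higher and 13.5% lower. In 6 genes the brightest probe set did not pass and another did: Sall4, Nr5a2, Mybl2, Lin28a, Fut9 and Jam2. The change of the further probe set minus that of the brightest was -2.13 for Sall4, 0.81 for Mybl2, 0.60 for Lin28a, 0.56 for Nr5a2 and 1.56 for Fut9, whose probe sets are dim. In these 5 genes the groups did not overlap in this quantity, which was not tested. In Jam2 the probe sets moved alike (-0.043 and 0.032), and the groups overlapped. These probe sets were picked after their values were seen.

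**Figure D2:**
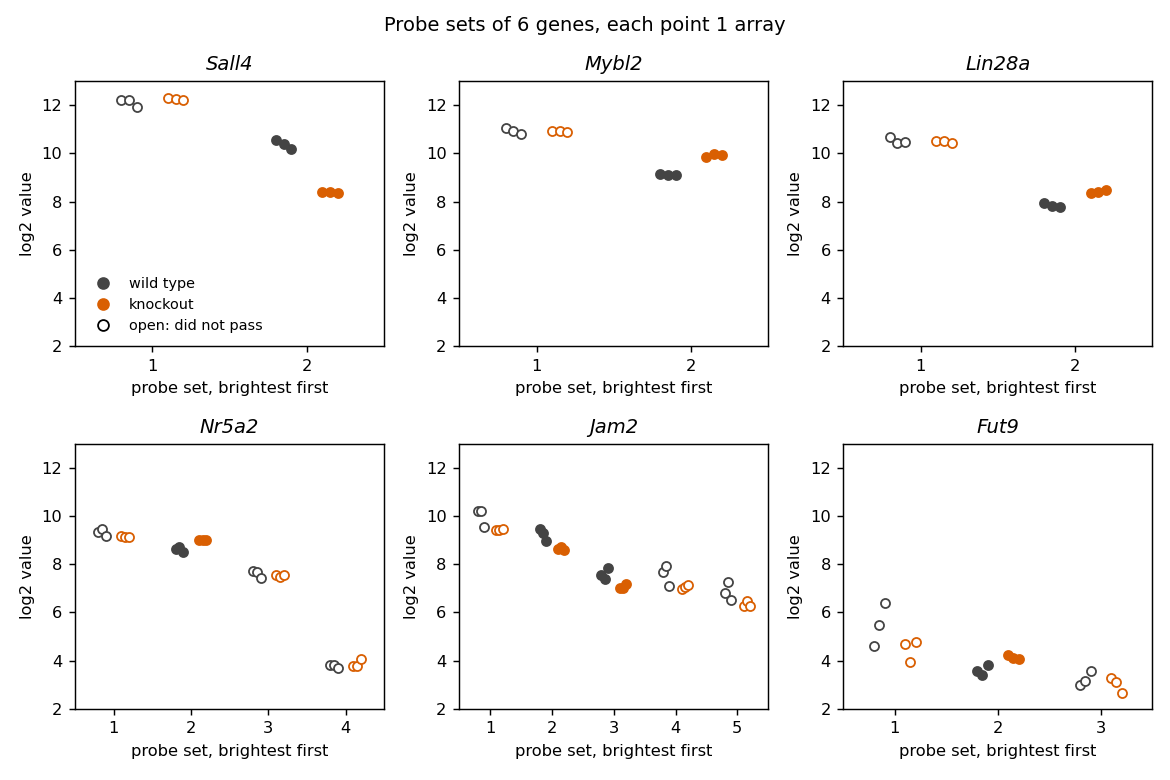
Log2 values of every probe set of the 6 genes whose brightest probe set did not pass while another did, brightest probe set first; each point is 1 array, grey for wild-type and orange for knockout, filled where the probe set passed the test. The second probe set of Sall4 drops from 10.37 to 8.39 on average while the brightest stays between 11.93 and 12.31.

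DPPA genes are named for expression that tracks pluripotency in development. DPPA2 and DPPA4 form a pair that binds DNA and primes developmental promoters, and their genes are adjacent on chromosome 16 with 0 protein-coding genes between them. Dppa4 was 12.22, 12.18 and 12.24 in wild-type and 11.90, 11.88 and 11.85 in knockout arrays. It fell by 0.34 (SE 0.06, adjusted p = 0.00970), or 1.26-fold, with little spread in either group. The call was lost without knockout replicate 3 (-0.32, adjusted p = 0.0520; range over alternatives 0.000116 to 0.0520). Dppa2 was 11.65, 11.63 and 11.49 in wild-type and 11.79, 11.74 and 11.81 in knockout arrays. Its knockout arrays were thus the higher ones, with a difference of 0.19 (SE 0.07) that did not pass (adjusted p = 0.131). With an intensity trend it passed at 0.0242 (range over alternatives 0.0242 to 0.318).

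Dppa3, also called Stella, protects the maternal genome from demethylation and varies from cell to cell in ES cultures. It lies next to Nanog on chromosome 6. Dppa3 was 9.84, 9.78 and 9.62 in wild-type and 10.02, 10.0001 and 10.04 in knockout arrays, without overlap. Its difference of 0.27 (SE 0.08) stood just short of the threshold (adjusted p = 0.0580), and passed without wild-type replicate 1 at 0.0366 (range over alternatives 0.0167 to 0.172). Dppa5a, which encodes a KH-domain RNA-binding protein, was 14.32, 14.32 and 14.29 in wild-type and 14.22, 14.24 and 14.23 in knockout arrays. The knockout arrays were lower by 0.08 without overlap, which did not pass (SE 0.06, adjusted p = 0.442). With an intensity trend this difference passed at 0.0116 (range over alternatives 0.0116 to 0.615).

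Of 8 markers, surface proteins and RNA-binding proteins, 3 rose, none fell and 5 did not pass at their brightest probe set. Of all genes 8.53% rose and 10.4% fell, and of those with a mean above 7, 13.5% rose and 13.5% fell. With 8 genes, the count is not read as a result about the group. Fbxo15 encodes an F-box protein and is a direct target of OCT4 and SOX2, dispensable in ES cells and long used as a reporter of pluripotency. It was 11.16, 11.27 and 11.05 in wild-type and 12.14, 12.15 and 12.20 in knockout arrays, so even the closest arrays of the groups lay far apart. The log2 difference was 1.002 (SE 0.08, adjusted p = 0.000263, 95% interval 0.82 to 1.18), or 2.002-fold higher. It passed in all 12 alternatives, between 0.95 and 1.06, and was higher than the difference of 99.3% of all genes.

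Pecam1 (CD31), a surface adhesion molecule whose level follows the naive state, was 7.21, 6.90 and 6.68 in wild-type and 7.67, 7.62 and 7.58 in knockout arrays. It rose by 0.69 (SE 0.13, adjusted p = 0.0136), or 1.62-fold. The call was lost without wild-type replicate 2 and without knockout replicates 1 or 2 (adjusted p = 0.0553, 0.0545 and 0.0515; range over alternatives 0.00265 to 0.0553). Tcl1, a coactivator of AKT kinase that sustains proliferation, was 9.77, 9.66 and 9.44 in wild-type and 10.09, 10.12 and 10.13 in knockout arrays. It rose by 0.49 (SE 0.09, adjusted p = 0.0134), or 1.40-fold. Its call was lost without knockout replicate 2 and without knockout replicate 3 (adjusted p = 0.0553 and 0.0552; range over alternatives 0.00283 to 0.0553).

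Jam2, a junctional adhesion molecule, was 10.20, 10.20 and 9.54 in wild-type and 9.41, 9.43 and 9.45 in knockout arrays. Wild-type replicate 3 lay near the knockout arrays, and the difference of -0.55 did not pass (SE 0.17, adjusted p = 0.0875). Without that array the difference was -0.77 with an adjusted p of 0.00161 (range over alternatives 0.00161 to 0.230). All 5 Jam2 probe sets were lower in the knockout, by 0.50 to 0.59, and 2 of them passed, the second brightest (-0.59, adjusted p = 0.0199) and the third (-0.52, adjusted p = 0.0284). Both calls were lost without any 1 of the knockout arrays (adjusted p 0.0594 to 0.0735 and 0.0596 to 0.101), and that of the second brightest also without wild-type replicate 2 (0.0732).

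Fut9 encodes the fucosyltransferase that makes the SSEA-1 antigen. It was 4.62, 5.48 and 6.38 in wild-type and 4.70, 3.95 and 4.79 in knockout arrays, against a median of all values of 4.62, so it was read near that median and with a wide spread. The difference of -1.01 did not pass (SE 0.43, adjusted p = 0.191), but did without wild-type replicate 1 (-1.45, adjusted p = 0.0401; range over alternatives 0.0401 to 0.494). A dimmer probe set was higher in the knockout (0.54, adjusted p = 0.0163), with both group means below that median. That call was lost without knockout replicate 1 or 2 (adjusted p = 0.0645 and 0.0557). For values this low, neither the size nor the direction of a change in Fut9 is settled.

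Alpl, the alkaline phosphatase stained to mark ES colonies, had a difference of 0.04 (SE 0.12, adjusted p = 0.871). L1td1, an RNA-binding protein derived from a LINE-1 element, had a difference of 0.06 (SE 0.08, adjusted p = 0.696). Lin28a, which blocks maturation of let-7 microRNAs, was 10.66, 10.45 and 10.46 in wild-type and 10.51, 10.52 and 10.41 in knockout arrays at its brightest probe set, which overlapped. Its other probe set was 7.94, 7.82 and 7.79 in wild-type and 8.34, 8.41 and 8.46 in knockout arrays. That probe set rose by 0.56 (SE 0.07, adjusted p = 0.00248), and its call held in all 11 alternatives run on it.

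None of the 4 chromatin and cell cycle regulators passed at the brightest probe set. Trim28 (KAP1, the corepressor that silences retroviral elements) had a difference of 0.05 with a 95% interval of -0.10 to 0.20. Thap11 (RONIN, a zinc finger factor needed for ES cell growth) had a difference of 0.02 with an interval of -0.13 to 0.17. Mybl2, the B-MYB cell cycle factor, was 11.05, 10.93 and 10.79 in wild-type and 10.94, 10.91 and 10.90 in knockout arrays at its brightest probe set. Its second probe set was 9.14, 9.10 and 9.08 in wild-type and 9.86, 9.99 and 9.91 in knockout arrays. That probe set rose by 0.81 (SE 0.06, adjusted p = 0.000311), or 1.76-fold, with the groups well separated, and passed in all 11 alternatives run on it. As for Sall4, no level of total Mybl2 RNA can be drawn from the pair.

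Rif1, a telomere and replication timing factor, had the largest wild-type SD of the 32 genes, 1.28. It was 8.91, 11.06 and 11.19 in wild-type and 10.77, 10.07 and 10.47 in knockout arrays. Wild-type replicate 1 was far below the rest, and in all 4 Rif1 probe sets it lay below the mean of the other wild-type arrays (log2 difference -1.31 to -2.58). The difference of 0.05 had a 95% interval of -1.31 to 1.42, so a large change in either direction lay within that interval. Without wild-type replicate 1 the difference was -0.69 (adjusted p = 0.0709).

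**Figure D3:**
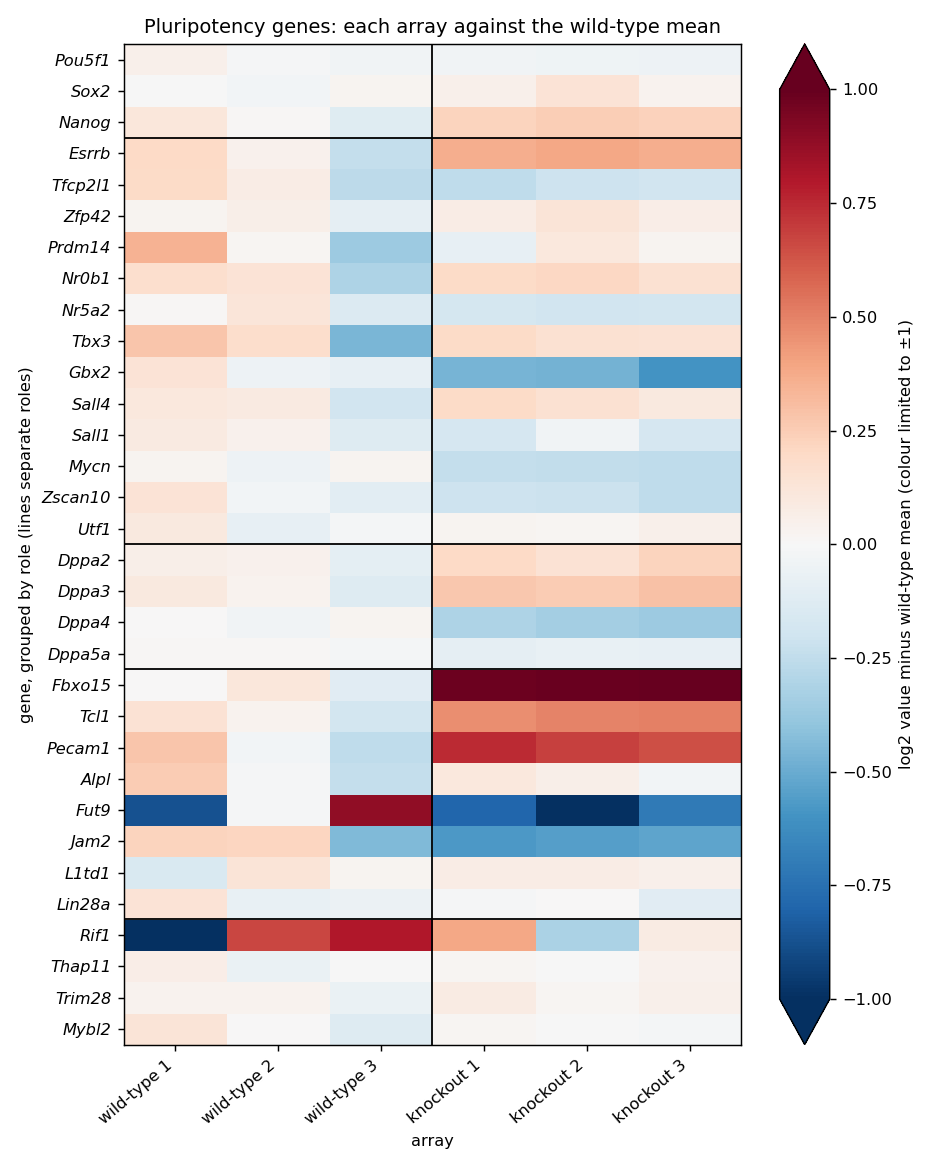
Log2 value of each array minus the wild-type mean of that gene, for 32 pluripotency genes (vertical axis, grouped by role) in 6 arrays (horizontal axis); red is above and blue below the wild-type mean, and colours stop at 1. The knockout columns look alike, wild-type replicate 3 is mostly blue, and Rif1 and Fut9 vary most within wild-type.

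The wild-type arrays varied more among themselves than the knockout arrays did. The SD was larger in wild-type for 31 of the 32 pluripotency genes, against 69.1% of all genes and 86.3% of those with a mean above 7. The median SD over the pluripotency genes was 0.12 in wild-type and 0.03 in knockout arrays. Wild-type replicate 3 was the lowest wild-type array for 23 of the 32 genes (71.9%), where it was so for 43.4% of genes with a mean above 7. Wild-type replicate 1 was the highest for 22 of the 32 (68.8%), against 59.8% of those genes. These counts were taken after the pattern had been seen. The limma test gives both groups 1 common spread and moderates it with that of all probe sets (4 residual and 3.08 prior degrees of freedom). The errors given here therefore reflect all probe sets as well as the wider wild-type group.

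Each gene was set beside its chromosome neighbours, the 10 nearest genes on each side in RefSeq order with a mean above 7. For Sox2 their median was -0.49, with 9 of 20 lower and 1 higher past the test, and Sox2 itself stood 0.56 above that median. With 5 or 20 genes on each side the median was -0.52 or -0.38. For the other 31 genes the neighbour median lay between -0.08 for Jam2 and 0.21 for Nr0b1 with 10 genes on each side. With 5 it ran from -0.11 for Gbx2 to 0.31 for Dppa4, and with 20 from -0.064 for Fbxo15 to 0.17 for Fut9. Among the genes that changed, with 10 on each side, Fbxo15 stood 1.07 above its 14 neighbours, Pecam1 0.66 above and Tcl1 0.44 above, whereas Gbx2 stood 0.49 below, Dppa4 0.44 below and Mycn 0.31 below theirs.

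**Figure D4:**
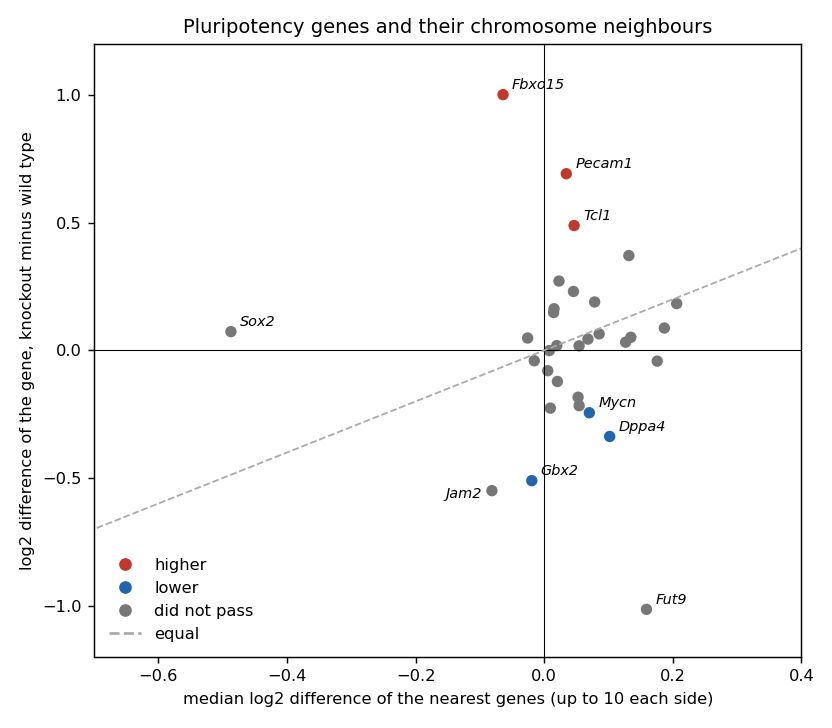
Log2 difference of each pluripotency gene (vertical axis) against the median difference of its nearest genes on the chromosome, up to 10 on each side (horizontal axis); the dashed line marks equal values. Sox2 is the point at -0.49 on the horizontal axis, and the genes that changed have neighbour medians of -0.064 (Fbxo15) to 0.10 (Dppa4).

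Neighbouring programmes were read from lists that hold no member. Of all genes 8.53% rose and 10.4% fell, and of those with a mean above 7, 13.5% rose and 13.5% fell. Of 11 genes of the KLF and LIF branch of the naive network, 2 rose, 2 fell and 7 did not pass (median difference 0.06). With 11 genes, the count is not read as a result about the branch. The naive factor gene Klf2 and the LIF feedback inhibitor gene Socs3 rose by 0.62 and 0.34, and Klf4 and Klf5 were lower (-0.63 and -0.36). Of 20 genes of the formative and primed epiblast, 7 rose, 8 fell and 5 did not pass (median difference -0.09). Zic5 and Zic2 rose by 1.16 and 1.09, while Fgf15 and Cldn6 were lower (-1.87 and -1.59). Otx2 and Pou3f1, factors that act together in the exit from the naive state and were picked out after their values were seen, moved apart. Otx2 rose by 0.91 and Pou3f1 fell (-0.999). Fgf5, the usual marker of primed cells, was 3.95 in wild-type and 3.83 in knockout arrays (means), below the median of all values in both.

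Genes of the 2-cell-like state, a rare state of ES cultures that Dppa2 and Dppa4 promote, were measured for only 10 of the 21 listed, and 6 of these 10 were below the median of all values in both groups. Of the 10, 4 fell, none rose and 6 did not pass (median difference -0.16), where 10.4% of all genes fell and 8.53% rose. With 10 genes, the count is not read as a result about that state. Usp17la and Tcstv1 were lower (-0.98 and -0.66), as were Ddit4l and Arg2 (-0.64 and -0.53). Tcstv1 (means 3.25 in wild-type and 2.59 in knockout arrays) and Arg2 (3.62 and 3.09) lay below the median of all values in both groups. Values this low cannot be separated from background here, so these falls are not read as results. The mean of Usp17la lay below that median only in the knockout (4.14, against 5.13 in wild-type), so its -0.98 is a rough value. Counts of these 3 lists moved by at most 1 gene in either direction without wild-type replicate 1.

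Many endoderm and trophoblast genes, which mark other cells that an ES culture can hold, were lower in the knockout. Of 27 endoderm genes 20 fell and none rose, and their summed linear level was 9009 to 10986 in wild-type and 2928 to 3055 in knockout arrays. Of 18 trophoblast genes 8 fell and none rose, with sums of 5787 to 6298 and 2564 to 2680. The largest falls were those of Krt8, Krt7, Krt18 and Lgals3 (-2.52, -1.91, -1.67 and -1.59). Krt8, Krt18 and Lgals3 were also the brightest of that list in wild-type arrays, so they weigh most in its sum. Cdx2, Eomes and Elf5, named after their values were seen, were among the 10 that did not pass. Of 17 mesoderm genes 2 fell and none rose, near the shares of all genes (10.4% and 8.53%), and their sums overlapped (349 to 368 and 337 to 361). Without wild-type replicate 1, 1 mesoderm gene fell and 1 rose. Of 17 neural genes 4 fell and 2 rose, with sums of 1250 to 1342 and 1078 to 1124. Olig1, among the brightest of that list in wild-type arrays, fell from 7.80 to 3.65 (log2 means) and weighs most in the fall of the sum. Pax6 rose, from 5.14 to 7.35. Of 20 fibroblast genes 4 fell and 2 rose, and 10 were below the median of all values in both groups. The fibroblast sum was higher in the knockout (3737 to 3969 and 4517 to 4597), whereas the median difference of the list was -0.07. The 2 that rose, Fn1 (from 10.69 to 11.08 on the log2 scale) and Vim (from 10.56 to 10.79), were also the brightest of the list. The endoderm marker genes Col4a2, Srgn, Col4a1 and Dab2 were lower by 3.38 to 3.71 on the log2 scale. In such bulk samples fewer cells of a type and less RNA per cell cannot be told apart. The summed level of the 32 pluripotency genes was 93621 to 99453 in wild-type and 99048 to 100219 in knockout arrays, with wild-type replicate 3 the lowest. Dppa5a, the brightest of them (log2 means of 14.31 and 14.23), weighs most in this sum. Within wild-type, the endoderm sum was also lowest in replicate 3 (9009). The part of these other cells in the differences of the pluripotency genes was not tested.

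**Figure D5:**
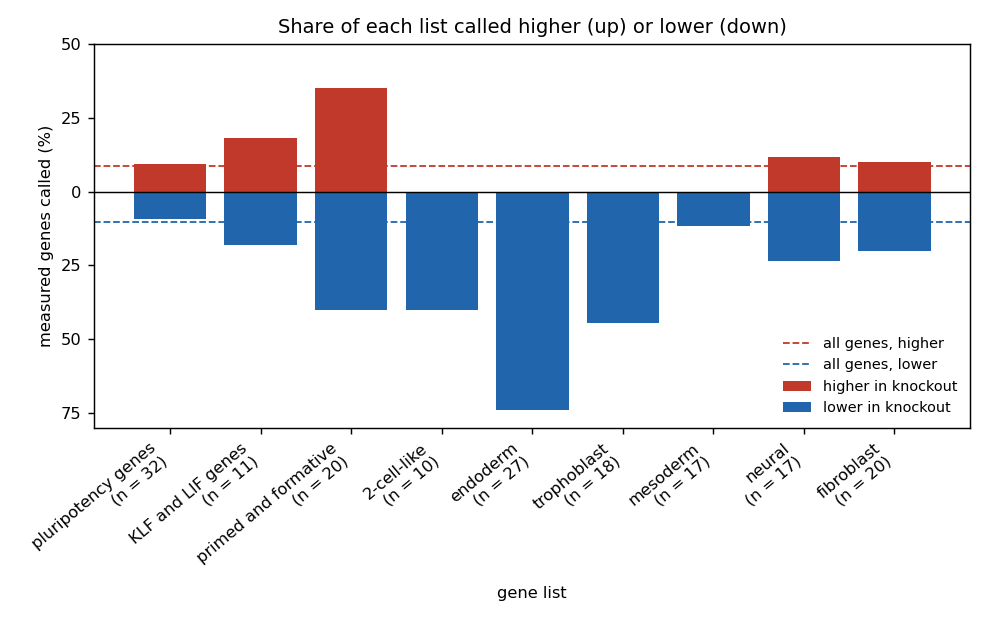
Share of the measured genes of each list that passed the test, upward for higher and downward for lower in the knockout, with dashed lines at the shares of all genes (8.53% and 10.4%). The pluripotency genes sit near the dashed lines, with 3 of 32 called in each direction. Genes with a mean above 7, their closer background, are not drawn, and 13.5% of those were higher and 13.5% lower. In the endoderm list 20 of 27 genes were lower and in the trophoblast list 8 of 18, with none higher. Of 20 primed and formative genes, 7 were higher and 8 lower.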

How the data were processed

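Biotinylated cRNA of 3 wild-type and 3 MED23 knockout ES cell samples was hybridised to Affymetrix arrays, per the labels' protocols. The values are log2 expression levels per probe set in 1 table the authors deposited; the range of values set the log base, which is not stated. The submitters' processing notes name RMA and MAS5 with no role or version. The table had 45101 probe sets and 0 columns of other samples. Values were used as deposited after leaving out 64 array controls. Detection calls were not used here, so low values cannot be separated from background.

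By the platform annotation 34945 probe sets had 1 symbol, 932 several and 9160 none; Entrez identifiers matched 34741 of the first to RefSeq symbols (GRCm38.p6). A gene was represented by its brightest probe set (mean over 6 arrays). All 45037 probe sets were fitted with limma 3.58.1 in R 4.3.3 (lmFit, eBayes, two-sided, 4 residual and 3.08 prior degrees of freedom), with Benjamini-Hochberg adjustment over all of them and a threshold of 0.05. Groups and replicate numbers came from the titles. The fit was tested on simulated data.

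The members, lists and alternatives were chosen with earlier results of these data known. All members were named; of other lists, up to 4 genes with the largest change past the threshold, except where stated. Alternatives were quantile normalization, centring on array medians, an intensity trend, a filter at the median value (4.62), leaving out each array, a replicate block, and the mean of all probe sets per gene. The number of arrays limits the precision.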

Additional observations from a re-analysis of the deposited data

How the results depend on the processing

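Over the 32 genes and 12 alternatives, 331 differences kept their direction and their side of the threshold, 22 passed only in the alternative (3 of them with the other sign), 15 passed only as first reported, and 16 changed sign without passing. Fbxo15 and Gbx2 were the called genes whose call held in all 12. The counts of pluripotency genes higher and lower, 3 and 3, were 7 and 5 with an intensity trend. In the whole table the probe sets higher and lower went from 3013 and 3346 to 3683 and 3809 with that trend. The higher count of pluripotency genes was 6 among probe sets above the median only, where 3691 of the fewer probe sets kept were higher. It was 8 with the mean of all probe sets per gene, for which no count over all genes is given here. The closeness to the background described above is that of the main fit. Leaving out 1 array gave 1 to 6 higher and 1 to 4 lower pluripotency genes, and 1497 to 3494 higher probe sets in the whole table. The lowest of these came without knockout replicate 2, the highest without wild-type replicate 1, and the lowest count of lower pluripotency genes without knockout replicate 3. The median difference of the pluripotency genes stayed between -0.02, without wild-type replicate 3, and 0.06.

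Same-numbered arrays did not deviate together (correlations of -0.13, -0.06 and 0.00). With 3 arrays per group, each set against its own group mean, these correlations cannot settle whether the numbers pair arrays. With a replicate block 1915 probe sets were higher, against 3013 without it, and primed and formative genes rose in 4 cases, against 7.

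Signs turned in 11 genes, none of which passed as first reported. The mean of all probe sets turned Nr5a2 to 0.057, Lin28a to 0.26, Sall4 to -0.92 and Mybl2 to 0.41, the last 3 past the threshold, because their probe sets differ. Centring turned Mybl2 to 0.0077. Leaving out 1 array gave Prdm14 -0.17 to 0.19, Utf1 -0.0090 to 0.081, Lin28a -0.078 to 0.028, Tbx3 -0.067 to 0.30, L1td1 -0.013 to 0.13, Rif1 -0.69 to 0.45, Thap11 -0.013 to 0.053, Alpl -0.075 to 0.17 and Mybl2 -0.066 to 0.062. Other causes were not tested.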
